A study of Mus musculus with 6 samples.

Results

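The RNA of 9 genes of the B lineage was followed in hematopoietic stem cells (HSCs) of irradiated and control mice. The genes were taken by name: the receptor signalling chains Cd79a and Cd79b, the linker Blnk, the surrogate light chain genes Igll1 and Vpreb1, the transcription factor Pax5, the surface protein gene Ms4a1, and the antibody-secretion genes Mzb1 and Jchain. All 9 were among the 21851 genes of the tables. The irradiated group (IR) held 3 libraries of HSCs from the bone marrow of mice given ionizing radiation, and the control group (Ctrl) held 3 libraries from mice given none; all mice were of WT genotype. The cells had been sorted as lineage-negative, Sca-1+, c-Kit+, CD150+, Flt3- and CD48-. The labels state no dose, no interval from exposure to sorting, no age and no count of animals behind a library. They also do not say that replicates are separate animals, so p-values here reflect library-to-library spread, which may be technical. Levels are FPKM, in which fragments mapped to a gene are divided by its length in kilobases and by the library's mapped fragments in units of 1000000, so that genes can be compared per length.

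HSCs are the cells from which all blood lineages arise, and B cells are made from them through lymphoid progenitors, pro-B cells and pre-B cells. On a B cell, antibody on the surface is held by a pair of signalling chains, CD79A and CD79B, which pass the signal through SYK and the linker BLNK to BTK and PLCG2. In pre-B cells the place of the light chain is taken by a surrogate made of the products of Vpreb1 and Igll1, and Pax5 commits the cell to the lineage under control of E2A and EBF1. Antibody-secreting cells use MZB1, a helper of the endoplasmic reticulum chaperone GRP94, and the J chain, which joins antibody units into polymers.

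The 9 genes did not move as a block. Jchain, which was by far the most abundant, and Cd79a rose in IR HSCs, whereas Blnk, Igll1, Vpreb1, Cd79b and Mzb1 fell, the last by little. Ms4a1 was near 0 in IR HSCs and low in Ctrl HSCs, and Pax5 was near 0 in both. Of the 9 genes, 7 passed the filter on low values, at least 1 FPKM in at least 3 libraries, and were tested; 2 rose and 5 fell (limma, Benjamini-Hochberg adjusted p under 0.05 over all 10281 genes tested). Of all genes tested 54.7% were called, 25.8% as higher and 28.9% as lower, so that a call by itself does not set a gene apart in this comparison. The groups did not overlap in 6 of the 7 tested genes, against 61.7% of all genes tested; IR was above Ctrl in 2 of them, against 29.1% of all genes, and below in 4, against 32.5%. The median log2 fold change of the 7 was -0.45, and that of all tested genes was -0.00721. In bulk samples such as these, fewer cells carrying an RNA and less of that RNA per cell cannot be told apart.

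**Figure D1:**
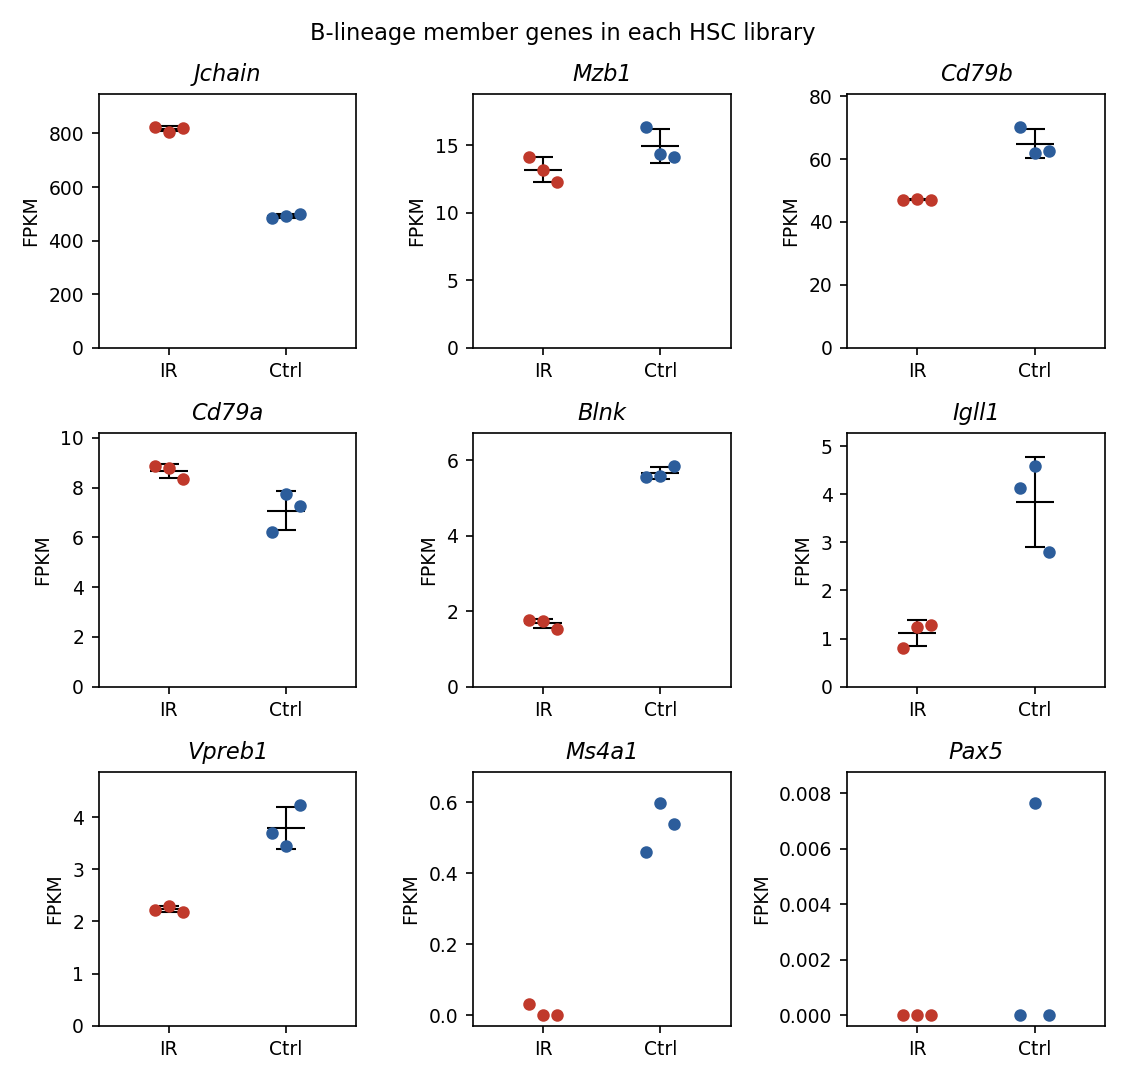
FPKM (vertical axes, each panel with its own scale) of the 9 genes in the 3 IR libraries (left) and the 3 Ctrl libraries (right). Points are libraries; bars are the mean and SD, left out for Ms4a1 and Pax5, which are listed at 0 in some libraries. Jchain and Cd79a were higher in all IR libraries, Cd79b, Blnk, Igll1, Vpreb1 and Ms4a1 were lower in all of them, and the groups overlapped for Mzb1 and Pax5.

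The stretches of DNA before the start sites are shown for 4 of these genes, a pair that rose (Jchain and Cd79a) and a pair that fell (Igll1 and Vpreb1). The sequences are those of RefSeq on GRCm38.p6, which held promoter entries for 6 of the 9 genes, and are printed 5′ to 3′ on the strand of the gene, 250 bases up to the RefSeq start. For Cd79a the stretch is cut to the 134 bases before the first exon of GENCODE M21, which begins upstream of the RefSeq start. The Vpreb1 window lies within the bounds of that gene in GENCODE M21. It holds an exon of a noncoding transcript of the gene (16869273 to 16869462). The matches marked in the Vpreb1 window fall in this exon. Capitals mark matches to 5 motifs of factors known from B-cell development, searched on both strands: CCCNNGGG, the core of EBF1 sites; CAGNTG, an E-box bound by E2A; GAGGAA, bound by PU.1; ATGCAAAT, the octamer; and TGGGAA, bound by Ikaros.
Jchain (chr5:88527898-88528147, minus strand): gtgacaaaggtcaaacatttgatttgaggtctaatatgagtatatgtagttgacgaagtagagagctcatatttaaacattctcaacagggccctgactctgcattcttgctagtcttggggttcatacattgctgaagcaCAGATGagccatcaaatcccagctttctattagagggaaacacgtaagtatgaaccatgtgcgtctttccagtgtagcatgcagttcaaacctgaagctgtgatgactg
Cd79a (chr7:24897247-24897380, plus strand): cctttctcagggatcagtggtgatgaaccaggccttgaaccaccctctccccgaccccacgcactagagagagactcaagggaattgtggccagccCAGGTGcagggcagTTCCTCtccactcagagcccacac
Igll1 (chr16:16863986-16864235, minus strand): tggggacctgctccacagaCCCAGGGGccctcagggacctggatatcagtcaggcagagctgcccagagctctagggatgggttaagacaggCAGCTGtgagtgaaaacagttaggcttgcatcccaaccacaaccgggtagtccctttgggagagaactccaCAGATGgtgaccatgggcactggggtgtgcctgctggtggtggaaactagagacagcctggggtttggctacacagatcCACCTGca
Vpreb1 (chr16:16869256-16869505, minus strand): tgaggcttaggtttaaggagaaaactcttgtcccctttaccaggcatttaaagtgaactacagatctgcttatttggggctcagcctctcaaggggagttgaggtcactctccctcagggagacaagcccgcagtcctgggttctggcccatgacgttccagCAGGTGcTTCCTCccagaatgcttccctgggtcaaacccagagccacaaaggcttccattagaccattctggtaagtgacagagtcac
An E-box match stood in all 4 stretches, once each in Jchain, Cd79a and Vpreb1 and 3 times in Igll1, while 44.8% of all 32851 windows of 250 bases in the RefSeq table held one. The EBF1 core was matched in Igll1 only, as CCCAGGGG, 231 bases before the start; 11.8% of all windows held this motif. Cd79a and Vpreb1 each had 1 match to the PU.1 motif (23.3% of windows), none of the 4 had the octamer (1.6% of windows) or the Ikaros motif (21.6% of windows), and no matches of different motifs overlapped. The window of Blnk, like that of Vpreb1, lies within the bounds of its gene in GENCODE M21. The Blnk window is not printed, and it held 2 E-box matches and 1 octamer match. The window of Pax5 held no match to any of the 5 motifs. These matches describe the letters of the windows, and no binding was measured.

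Jchain encodes the joining chain of polymeric antibody. It lies on chromosome 5 from 88519809 to 88527891 (GRCm38, minus strand, protein-coding). The IR libraries had 825.4, 806.8 and 819.5 FPKM, against 484.9, 490.8 and 498.0 FPKM in the Ctrl libraries. All IR libraries were above all Ctrl libraries, and the gap was many times the spread within either group. The level averaged 817 ± 9.51 FPKM in IR HSCs and 491 ± 6.59 FPKM in Ctrl HSCs (SD, n = 3 each), a ratio of 1.66. On the log2(FPKM + 1) scale, which is used for every log2 fold change here and understates the change of low genes, the fold change was 0.73 (SE 0.0181, limma Benjamini-Hochberg adjusted p = 3.58e-09), the rank 51 among the rises of tested genes. By mean level Jchain stood at rank 62 of the 10281 tested genes in IR HSCs and at rank 130 in Ctrl HSCs. About 9980 to 18100 fragments per library lay behind these values, an estimate from the steps between low values and the length of the coding transcript.

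Mzb1, on chromosome 18 from 35647267 to 35649367 (GRCm38, minus strand), encodes a helper of antibody folding that is also known from marginal zone B cells. Its level was 14.15, 13.17 and 12.29 FPKM in IR HSCs and 16.38, 14.33 and 14.13 FPKM in Ctrl HSCs. The highest IR library lay just above the lowest Ctrl library, so the groups overlapped. Its log2 fold change was -0.17, with a 95% interval of -0.31 to -0.03 (adjusted p = 0.0469 by limma with Benjamini-Hochberg). This call was lost in 8 of 14 alternatives, among them leaving out Ctrl replicate 1, Ctrl replicate 2, IR replicate 2 or IR replicate 3; without Ctrl replicate 1 the adjusted p was 0.175 in the limma fit. The log2 ratio of Jchain over Mzb1 averaged 5.85 ± 0.0907 in IR HSCs and 4.95 ± 0.128 in Ctrl HSCs (SD, n = 3 each), and was higher in all IR libraries (exact 2-sided permutation p = 0.1, the smallest possible).

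Cd79b was the most abundant of the receptor genes. It encodes the beta signalling chain and lies on chromosome 11 from 106311341 to 106314762 (GRCm38, minus strand). Its level was 47.05, 47.44 and 46.90 FPKM in IR HSCs and 70.33, 61.92 and 62.58 FPKM in Ctrl HSCs. The IR libraries were within 1 FPKM of each other and all below the Ctrl libraries, of which replicate 1 was the highest. Expressed as a log2 fold change this was -0.45 (SE 0.0442, limma Benjamini-Hochberg adjusted p = 1.99e-05), and -0.39 without Ctrl replicate 1.

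Cd79a, the gene of the alpha chain (chromosome 7, 24897381 to 24902197, plus strand, GRCm38), moved the other way. The IR libraries had 8.88, 8.77 and 8.345 FPKM, and the Ctrl libraries had 6.22, 7.74 and 7.26 FPKM. The groups did not overlap, but the lowest IR library was near the highest Ctrl library. Cd79a had a log2 fold change of 0.26, with a 95% interval of 0.11 to 0.41 (limma Benjamini-Hochberg adjusted p = 0.00757). The alternatives gave values between 0.18 and 0.32, all past the threshold.

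The products of Cd79a and Cd79b form a heterodimer, and their RNAs were far from equal. The ratio of Cd79a to Cd79b FPKM was 0.189, 0.185 and 0.178 in IR HSCs and 0.0884, 0.125 and 0.116 in Ctrl HSCs. Every IR library had the higher ratio. On the log2(FPKM + 1) scale the ratio differed by 0.72, at -2.32 ± 0.0385 in IR HSCs and -3.03 ± 0.241 in Ctrl HSCs (SD, n = 3 each). An exact 2-sided permutation test gave p = 0.1, which is the smallest that 3 against 3 libraries allow and stayed 0.1 after adjustment over the 3 ratios compared, so the threshold could not be reached for any of them.

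Blnk encodes the linker that gathers PLCG2, BTK and other proteins once SYK is active (chromosome 19, 40928927 to 40994535, minus strand, GRCm38). Its level was 1.75, 1.74 and 1.53 FPKM in IR HSCs and 5.55, 5.57 and 5.85 FPKM in Ctrl HSCs. All 3 IR libraries were below the Ctrl libraries by far more than the spread within a group. For Blnk the log2 fold change was -1.32 (SE 0.058, limma Benjamini-Hochberg adjusted p = 1.15e-07), the rank 17 by size among all 10281 tested genes and 13 among falls. By mean FPKM Blnk was 3.38-fold lower in IR HSCs; about 46 to 58 fragments lay behind each IR value and 172 to 190 behind each Ctrl value. Under a pseudocount of 0.1 in place of 1 the log2 fold change was -1.70, and under one of 5 it was -0.68.

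Igll1 and Vpreb1, which lie a few kilobases apart on chromosome 16, encode the partners that make up the surrogate light chain. Igll1 (16860671 to 16863985, minus strand, GRCm38) had 0.801, 1.24 and 1.28 FPKM in IR HSCs and 4.12, 4.59 and 2.79 FPKM in Ctrl HSCs. The Ctrl libraries were spread widely, with replicate 3 the lowest, yet all were above the IR libraries. This gave a log2 fold change of -1.19 (SE 0.138, limma Benjamini-Hochberg adjusted p = 6.38e-05). About 11 to 16 fragments lay behind each IR value and 35 to 65 behind each Ctrl value, so counting error is large here.

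Vpreb1 (chromosome 16, 16868403 to 16870843, minus strand, GRCm38) had 2.23, 2.29 and 2.18 FPKM in IR HSCs and 3.70, 3.44 and 4.24 FPKM in Ctrl HSCs. The IR libraries were close to each other and below every Ctrl library. The log2 fold change was -0.57 (SE 0.0685, limma Benjamini-Hochberg adjusted p = 7.99e-05). Vpreb2, a close copy of Vpreb1 that can share its reads, was at most 0.0465 FPKM in IR HSCs and at most 0.0903 FPKM in Ctrl HSCs, so nearly all reads of the pair were assigned to Vpreb1, and their true division is uncertain. The log2 ratio of Igll1 over Vpreb1 was -0.62 ± 0.192 in IR HSCs and -0.00405 ± 0.416 in Ctrl HSCs (SD, n = 3 each), and here too the exact permutation p was 0.1. With a pseudocount of 5 in place of 1 the groups overlapped, the difference was -0.25 in place of -0.62, and the exact p was 0.3. The groups nearly met in this ratio, at -0.48 in IR replicate 3 and -0.47 in Ctrl replicate 3. Igll1 was under 1 FPKM in IR replicate 1 and passed the filter through the other 5 libraries.

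Ms4a1, the gene of the B-cell surface protein CD20 (chromosome 19, 11249675 to 11266241, minus strand, GRCm38), did not pass the filter. It stood at 0.0308 FPKM in IR replicate 1 and was listed at 0 in IR replicates 2 and 3, against 0.460, 0.598 and 0.539 FPKM in the Ctrl libraries. About 1.49 fragments in 1 IR library were thus set against 20.9 to 29.9 fragments in each Ctrl library. In the fit without a filter the log2 fold change was -0.60, and it was called (limma Benjamini-Hochberg adjusted p = 7.72e-05). Pax5 (chromosome 4, 44524757 to 44710487, minus strand, GRCm38) was listed at 0 in all 3 IR libraries and in Ctrl replicates 1 and 3, and stood at 0.00764 FPKM in Ctrl replicate 2, about 1 fragment. No difference in Pax5 could be seen at this depth.

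**Figure D2:**
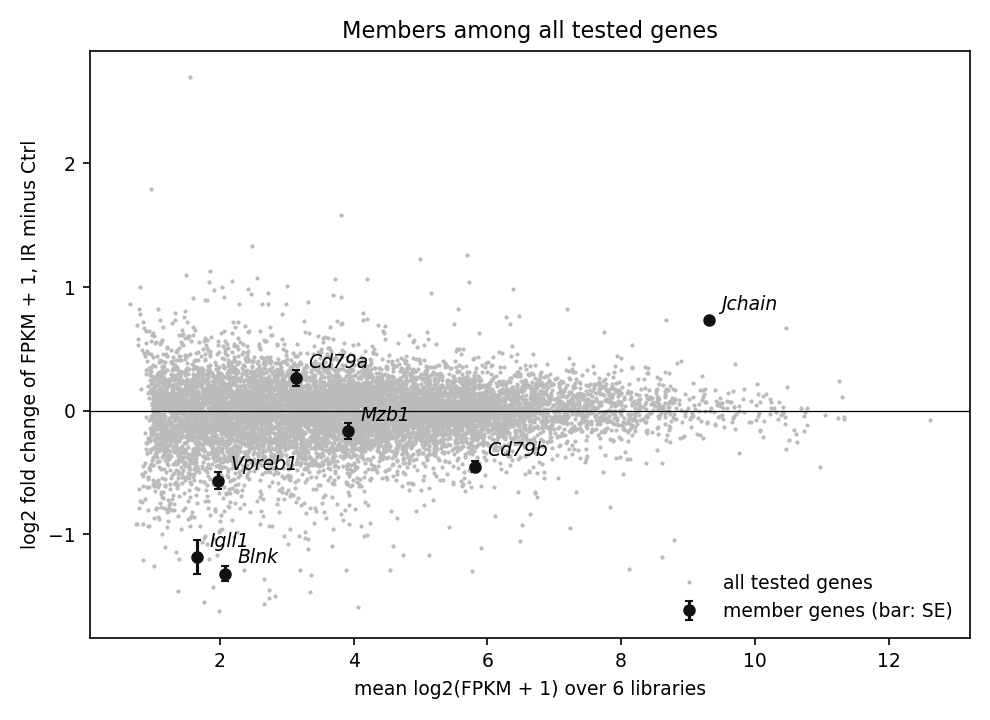
Log2 fold change of FPKM + 1, IR minus Ctrl (vertical axis), against the mean log2(FPKM + 1) over 6 libraries (horizontal axis) for the 10281 tested genes in grey and the 7 tested B-lineage genes in black, with SE bars. Jchain lay at the abundant end with a log2 fold change of 0.73, and Blnk and Igll1 lay at the lower edge of the grey cloud at -1.32 and -1.19.

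Across the genes per length, the order of levels in both groups was Jchain, Cd79b, Mzb1 and Cd79a. Below these, the order in IR HSCs was Vpreb1, Blnk and Igll1, while in Ctrl HSCs Blnk, at 5.66 ± 0.170 FPKM, was above Igll1 and Vpreb1 (SD, n = 3), and Igll1 and Vpreb1, at 3.83 ± 0.935 and 3.795 ± 0.409 FPKM, did not differ beyond their spread (SD, n = 3 each). Jchain was between 58.3 and 66.7 times the level of Mzb1 in IR HSCs and between 29.6 and 35.2 times in Ctrl HSCs. By percentile among tested genes, Jchain was at 99.36 to 99.42 in IR libraries and 98.74 to 98.75 in Ctrl libraries, and Blnk at 7.22 to 9.29 in IR libraries and 29.8 to 31.3 in Ctrl libraries.

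**Figure D3:**
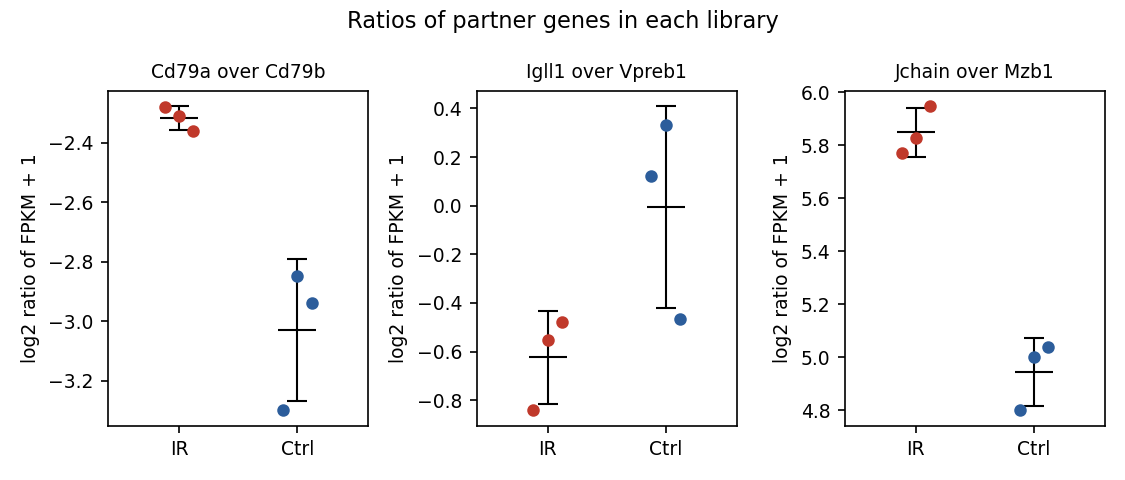
Log2 ratio of FPKM + 1 (vertical axes, each with its own range, not starting at 0) of Cd79a over Cd79b, Igll1 over Vpreb1 and Jchain over Mzb1 in the IR libraries (left) and Ctrl libraries (right). Points are libraries and bars are the mean and SD; the IR ratio was higher in the first and last pair and lower in the middle pair, without overlap at the pseudocount of 1 shown, and each exact permutation p was 0.1.

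For the 3 most abundant members, the genes with the most similar profile over the 6 libraries were taken by the root mean square difference of centred log2(FPKM + 1) values. Nearest to Jchain were Rcc2 (0.0167), Hspa5 (0.0239) and Daglb (0.0321), with log2 fold changes of 0.70, 0.73 and 0.67. Nearest to Cd79b were Il6st (0.0313), Tfpi (0.0331) and Ldlrad4 (0.0342), and nearest to Mzb1 were Dmkn (0.0192), Ubr3 (0.0378) and Fam102b (0.0382). Il6st, Tfpi and Ldlrad4 fell by 0.43, 0.49 and 0.48 on the log2 scale, Fam102b fell by 0.24, and Dmkn and Ubr3 were not called, at -0.14 and -0.12.

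The lists described from here on hold none of the 9 genes. A gene that reached 1 FPKM in libraries of 1 group only had to differ to be tested, so such genes are left out of the counts and medians, a choice made after seeing the data. Transcription factors listed for the B lineage, not all of them restricted to it, were mostly present, and more fell than rose in IR HSCs. Ebf1, Ikzf3, Spib, Bach2, Pou2af1, Irf4, Lef1 and Id3 averaged under 1 FPKM in both groups and were not tested, so the counts leave them out. Of 25 factors listed 17 were tested; 2 rose, 10 fell and 5 missed the threshold, and the median log2 fold change was -0.20. Tcf4, an E protein, averaged 4.96 ± 0.0663 FPKM in IR HSCs and 7.93 ± 0.0387 FPKM in Ctrl HSCs, and Mef2c, a factor of lymphoid commitment, averaged 22.7 ± 0.314 FPKM in IR HSCs and 31.45 ± 0.525 FPKM in Ctrl HSCs (SD, n = 3 each). Irf8, Id2, Spi1 (PU.1) and Ikzf1 (Ikaros) had log2 fold changes of -0.45, -0.54, -0.20 and -0.23, all called. Ebf1, which works with Pax5, was between 0.0123 and 0.0447 FPKM in IR libraries and between 0.0109 and 0.0367 FPKM in Ctrl libraries. Tcf3, the E2A gene, named for its place in the pathway, was at 41.8 ± 1.61 FPKM in IR HSCs and 41.8 ± 0.616 FPKM in Ctrl HSCs and was not called (SD, n = 3 each).

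Genes of signalling downstream of the receptor fell more often than they rose, with mostly small changes. Of 30 genes listed 24 were tested and reached 1 FPKM in both groups; 3 rose, 14 fell and 7 were not called, with a median of -0.12. Pik3ap1, the adaptor BCAP, fell to 16.2 ± 0.654 FPKM in IR HSCs, against 23.2 ± 0.643 FPKM in Ctrl HSCs (SD, n = 3 each). Rac2 and Sh3bp2 fell by 0.15 and 0.38 on the log2 scale, and the adaptors Dapp1 and Grb2 rose by 0.22 and 0.28. The direct partners of Blnk were named for their role: Syk, at 9.04 ± 0.0725 FPKM in IR HSCs and 8.74 ± 0.113 FPKM in Ctrl HSCs, and Btk, at 39.2 ± 0.826 FPKM in IR HSCs and 37.7 ± 0.293 FPKM in Ctrl HSCs, were not called (SD, n = 3 each), and Plcg2 had a log2 fold change of -0.08 (limma Benjamini-Hochberg adjusted p = 0.0371). Among 11 tested inhibitory receptors and phosphatases 8 fell and 3 were not called (median -0.15), with Ptprc at -0.37, Pirb at -0.98, Cd72 at -0.39 and Lilrb4a at -0.56.

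Among 8 tested genes of V(D)J recombination and the pre-B receptor that reached 1 FPKM in both groups 1 rose, 4 fell and 3 missed the threshold (median -0.14). Dntt, the terminal transferase that adds bases at antigen-receptor joints, averaged 176.5 ± 2.97 FPKM in IR HSCs and 430 ± 6.62 FPKM in Ctrl HSCs (SD, n = 3 each). Nhej1, of end joining, had a log2 fold change of -0.43. Rag2, the partner of RAG1, and Il7r, the IL-7 receptor gene, passed the filter through the Ctrl libraries alone; Rag2 averaged 0.852 ± 0.107 FPKM in IR HSCs and 2.235 ± 0.331 FPKM in Ctrl HSCs, and Il7r averaged 0.708 ± 0.0398 FPKM in IR HSCs and 1.625 ± 0.1085 FPKM in Ctrl HSCs (SD, n = 3 each). With them the median of the list was -0.30, and without any filter it was -0.09. Of 12 tested surface and antigen presentation genes 1 rose, 8 fell and 3 missed the threshold (median -0.28). Ltb fell to 16.8 ± 0.984 FPKM in IR HSCs, against 39.0 ± 2.47 FPKM in Ctrl HSCs, Cd52 had a log2 fold change of -0.78, Tnfrsf13b, the receptor TACI, of -0.42 and Ly86 of -0.34. Of 7 tested relatives of Ms4a1 in the MS4A family 1 rose, 5 fell and 1 missed the threshold (median -0.40); Ms4a4b, Ms4a6b and Ms4a6c had log2 fold changes of -0.98, -0.47 and -0.39, while Ms4a3, known from myeloid progenitors, rose by 0.42.

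**Figure D4:**
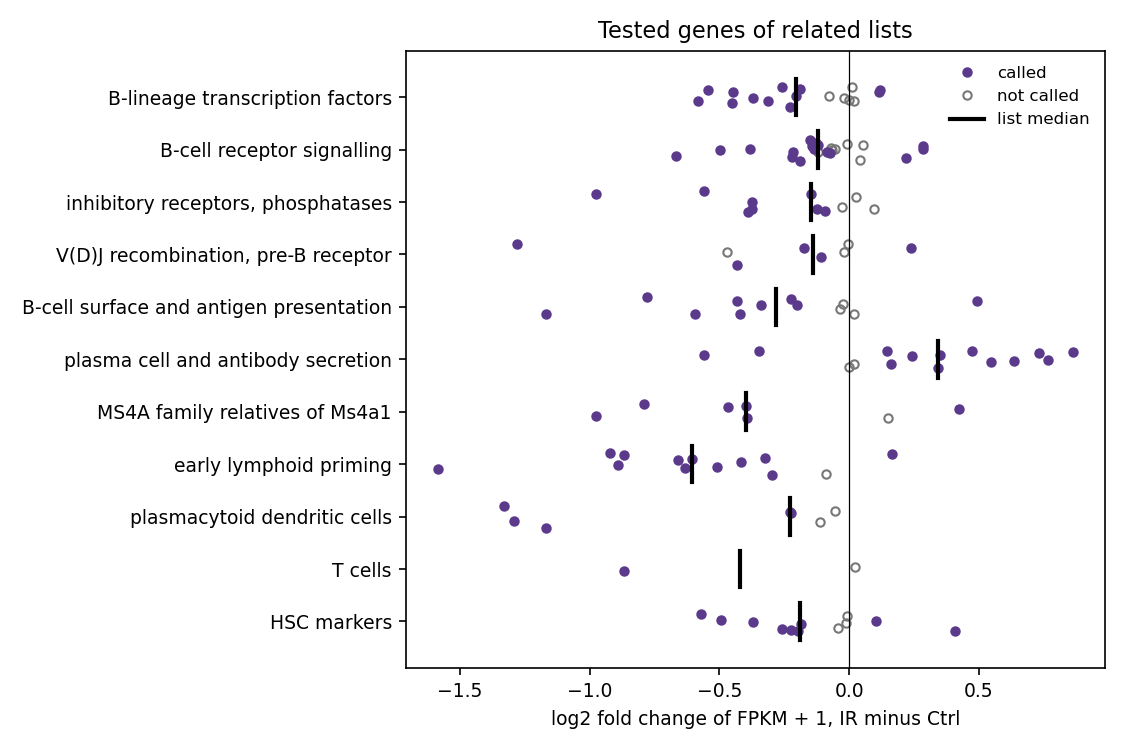
Log2 fold change of FPKM + 1, IR minus Ctrl (horizontal axis), of the tested genes of 11 lists that reached 1 FPKM in both groups. Filled points were called (limma, Benjamini-Hochberg adjusted p under 0.05), open points were not, and the bar is the list median. The median was above 0 only for the plasma cell and antibody secretion list, at 0.34, and the other 10 medians ran from -0.61 to -0.12.

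Genes of antibody secretion mostly rose in IR HSCs. Of 15 tested 11 rose, 2 fell and 2 missed the threshold, and their median log2 fold change was 0.34. The members with the smallest p were chaperones of the endoplasmic reticulum, which all secreting cells use: Hspa5, Hsp90b1, Creld2 and Pdia4 rose by 0.73, 0.64, 0.77 and 0.47. Hsp90b1, which encodes GRP94, the partner of MZB1, averaged 265 ± 1.499 FPKM in IR HSCs and 170 ± 1.01 FPKM in Ctrl HSCs (SD, n = 3 each). Among genes named for their role, Xbp1, the factor of the secretory programme, rose by 0.24 and Derl3 by 0.86, whereas the plasma cell marker Sdc1 fell to 4.02 ± 0.294 FPKM in IR HSCs, against 6.42 ± 0.686 FPKM in Ctrl HSCs (SD, n = 3 each). Prdm1, the factor that defines plasma cells, was at most 0.229 FPKM in IR libraries and at most 0.341 FPKM in Ctrl libraries. The 12 immunoglobulin constant genes listed were not analysed here.

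Markers of other cells in which these RNAs are found were measured beside them. Among markers of mature B cells, Cd22, an inhibitory receptor, was between 0.0287 and 0.0403 FPKM in IR libraries and between 0.0391 and 0.0883 FPKM in Ctrl libraries. Cr2, a complement receptor, was at most 0.0260 FPKM in IR libraries and at most 0.0266 FPKM in Ctrl libraries, and Fcer2a, the low-affinity IgE receptor, was at most 0.0847 FPKM in IR libraries and at most 0.282 FPKM in Ctrl libraries. The 6 other pro-B and pre-B markers summed to 2.86 to 3.83 FPKM in IR libraries and 5.16 to 7.46 FPKM in Ctrl libraries. Nearly all of this was Vpreb3, Rag2 and Il7r. Vpreb3 was between 1.23 and 2.10 FPKM in IR libraries and between 1.53 and 3.58 FPKM in Ctrl libraries. Its groups overlapped and it was not called (limma Benjamini-Hochberg adjusted p = 0.0601). Rag1, which starts recombination, was listed at 0 in all IR libraries and between 0.0456 and 0.0602 FPKM in Ctrl libraries. The 4 other plasma cell markers summed to 152 to 155 FPKM in IR libraries and 130 to 137 FPKM in Ctrl libraries, nearly all of it Xbp1. For plasmacytoid dendritic cells, which are known to share RNAs with B cells, the 8 markers summed to 114 to 119 FPKM in IR libraries and 132 to 137 FPKM in Ctrl libraries, mostly Bst2; Klk1 was at 0 throughout, and Siglech, the defining receptor, averaged 0.436 ± 0.0650 FPKM in IR HSCs and 1.35 ± 0.111 FPKM in Ctrl HSCs (SD, n = 3 each). In a wider list of that cell type 5 of 7 tested genes that reached 1 FPKM in both groups fell and none rose (median -0.23), with Irf7, Cox6a2 and Tlr7 at -1.29, -1.33 and -1.17. Siglech and Cd300c of that list passed the filter through the Ctrl libraries alone. The 7 T-cell markers summed to 18 to 18.8 FPKM in IR libraries and 34.9 to 36.0 FPKM in Ctrl libraries, mostly Lck; Cd3g was at 0 in every library, and in a wider T-cell list the 2 genes that reached 1 FPKM in both groups were Lck, with a log2 fold change of -0.87, and Lat, which was not called. Cd4, at 0.228 ± 0.111 FPKM in IR HSCs and 1.33 ± 0.269 FPKM in Ctrl HSCs, and Cd247, at 0.594 ± 0.0676 FPKM in IR HSCs and 1.13 ± 0.0750 FPKM in Ctrl HSCs, passed the filter through the Ctrl libraries alone (SD, n = 3 each). Cd2 of that list, named after its values were seen, stood at 0.720, 0.473 and 0.365 FPKM in IR libraries and was listed at 0 in all Ctrl libraries, and did not pass the filter. The part of any such cells in the falls of Blnk, Igll1, Vpreb1, Cd79b and Ms4a1 was not tested.

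The same direction was seen in the lymphoid-priming genes of uncommitted progenitors, a pattern already known for these libraries and so no independent support. Of 13 tested genes 1 rose, 11 fell and 1 missed the threshold (median -0.61), with Flt3, Ly6d, Lsp1 and Limd2 at -0.92, -1.58, -0.66 and -0.51. A list of stem and progenitor cell markers held 12 tested genes that reached 1 FPKM in both groups. Of these 2 rose, 7 fell and 3 were not called (median -0.19). Ly6a was at -0.37, Procr at -0.57 and Cd34 at -0.22. Cd34 and Cd48, both among the falls, are not restricted to HSCs, so the count does not describe HSC identity. Hoxb5, which passed the filter through the IR libraries alone, was between 1.10 and 1.61 FPKM in IR libraries and between 0.464 and 0.695 FPKM in Ctrl libraries. Of the sorted markers, Kit averaged 96.7 ± 1.65 FPKM in IR HSCs and 97.5 ± 1.72 FPKM in Ctrl HSCs (SD, n = 3 each). RNA of this marker was thus present in both groups, which by itself does not identify the cell type. Slamf1, the CD150 gene, averaged 5.06 ± 0.443 FPKM in IR HSCs and 3.565 ± 0.409 FPKM in Ctrl HSCs (SD, n = 3 each). RNA of 2 genes whose proteins the gate excluded was also present: Flt3 averaged 65.7 ± 1.43 FPKM in IR HSCs and 125 ± 1.58 FPKM in Ctrl HSCs, and Cd48 averaged 352 ± 8.003 FPKM in IR HSCs and 400.1 ± 3.36 FPKM in Ctrl HSCs (SD, n = 3 each). Their part in the results was not tested.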

How the data were processed

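RNA-seq of sorted HSCs was deposited as 6 tables, 3 IR and 3 Ctrl, with 1 FPKM value per gene symbol. The authors named fastp, HISAT2 and StringTie and the builds GRCm38 and mm10, per the submitters' processing notes; no source names their versions, order, settings or annotation. The libraries were stranded and polyadenylated-RNA selected, per the labels' protocols. The deposited column has no stated unit; it was taken as FPKM from its range, its sums and StringTie's usual output. Each table held 21878 entries, of which 27 had a calendar date in place of a symbol and were left out. Libraries summed to between 485166 and 489838 FPKM.

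Steps between low values of single-transcript genes (25.4% to 28% of low values lay within 0.01 of a whole multiple) correspond to about 14400000 to 16300000 fragments per library; fragment numbers are approximate and use the longest coding transcript of GENCODE M21. The median squared difference within replicate pairs was 1.28 to 1.62 times that of counting noise, so no library was counted as a copy of another. This cannot tell technical repeats from separate animals.

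The test used log2(FPKM + 1) for genes that reached 1 FPKM in 3 or more libraries and was run in limma 3.58.1 (R 4.3.3; mean-variance trend, 2-sided, no replicate block), with Benjamini-Hochberg adjustment over 10281 genes and a threshold of 0.05. The script was tested on simulated data. Partner ratios used an exact permutation test. The alternatives were other pseudocounts, filters and scalings, no trend, a replicate block and leaving out each library; leaving out list genes that reached 1 FPKM in 1 group only was added after seeing the data. The genes named are the 9 members, the 4 genes with the smallest p of each list (6 for transcription factors and receptor signalling), the 3 nearest profiles of the 3 most abundant members, the cell type markers, and genes said to be named for their role. A few genes that this rule names are not reported here. Members and lists were chosen with earlier results of these data known.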

Additional observations from a re-analysis of the deposited data

How the results depend on the processing

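The log2 fold changes of Jchain, Cd79a, Cd79b, Blnk, Igll1 and Vpreb1 kept their direction and their side of the threshold in every alternative run; the filter of 5 FPKM left out Igll1 and Vpreb1. Mzb1, close to the threshold, kept its direction and lost its call in 8 of 14 alternatives (values from -0.21 to -0.10, adjusted p from 0.0116 to 0.175, limma). The number of genes called lower among the 9 was 3 with the filter of 5 FPKM, which removes 2 of them, and 4 to 5 when 1 library was left out; the number called higher stayed at 2. Without a filter 5 were called lower, with Ms4a1 in and Mzb1 out. Of all tested genes 5622 were called, and 4995 to 5183 with 1 library left out. The share of calls that were higher was 47.1%, and 52.2% after quantile normalization. The partner ratios kept their direction in 24 of 24 alternatives, but that of Igll1 over Vpreb1 ran from -0.96 with a pseudocount of 0.1 to -0.25 with one of 5, where the groups overlapped (exact permutation p = 0.3). Of 495 list counts and medians under alternatives, 37 moved, and no median changed sign. With the genes that passed the filter through 1 group, the median of the plasmacytoid list was -0.71 (-1.38 with a pseudocount of 0.1 and -0.225 with one of 5), that of the T-cell list was -0.64 (-0.08 without a filter), and that of the V(D)J list was -0.30 (-0.09 without a filter, -0.14 with the filter of 5 FPKM and -0.19 with a pseudocount of 5). Same-numbered libraries did not deviate together (correlations of 0.0085, -0.0314 and -0.0486), so the numbers were not taken as pairs; with the replicate block 5379 genes were called, and the calls of all 7 tested members were kept, that of Mzb1 at an adjusted p of 0.0116 by limma. Depth limits Pax5, Ms4a1 and Igll1 in IR HSCs.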
